A study of Caenorhabditis elegans with 6 samples.

Results

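Within a whole-animal RNA-seq series of the Caenorhabditis elegans wild-type strain N2, the libraries numbered 3 (ASP 3 and Control 3) were set against the libraries numbered 2 (ASP 2 and Control 2), 4 of the 6 libraries in all. ASP animals were given the sweetener aspartame at 100 µM and Control animals were not. Both members of a pair carry the same replicate number in their labels, so each number holds 1 library of either group. Every gene with a mean of at least 1 FPKM (fragments per kilobase of transcript, scaled to library size) over the 6 libraries was compared, 13790 genes of the 25212 in the table. The remaining libraries, ASP 1 and Control 1, entered the fit as a further pair and are given as context. The series concerns innate immunity to the bacterium Pseudomonas aeruginosa, and whether these animals were exposed to it is not stated. No age or larval stage is stated either, and neither is the meaning of a replicate number or whether the libraries came from separate cultures. The p-values below thus rest on library-to-library spread alone, part of which could be technical. For the comparison of numbers, that spread is how the difference between ASP and Control varied from number to number. It does not measure how far separate cultures or batches would differ, since each number holds 1 library of either group.

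A C. elegans larva replaces its collagen cuticle at each molt, and the genes that build, secrete and shed the cuticle peak once per molting cycle. Adult hermaphrodites stop molting, make yolk proteins in the gut and load oocytes with yolk, eggshell components and maternal mRNA. Whole-animal RNA can therefore carry markers of both programmes, in proportions that can vary with age, with the phase of the molting cycle and with other conditions. Which programme a group of genes marks is textbook knowledge and was not measured here.

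The number 3 libraries differed from the number 2 libraries at 3346 of 13790 genes, 24.3% of those tested (edgeR quasi-likelihood test with group and number in the model, Benjamini-Hochberg adjusted p under 0.05). Of these, 1670 genes (12.1%) were higher in number 3 and 1676 (12.2%) were lower. That split depends on the scaling, with 1248 genes higher and 2193 lower with library totals alone, and 1037 higher and 2079 lower with limma on log2(FPKM + 0.1). The median log2 difference was 0.76 among the genes called higher, −0.75 among those called lower and −0.0024 over all genes tested. At least 2-fold differences were found in 563 genes called higher and 599 called lower, and at least 4-fold differences in 31 and 116. Another 1201 called genes differed by under 1.5-fold, and the median half-width of the 95% interval was 0.325 on the log2 scale. Of the 3346 called genes, 3338 had no overlap of FPKM between the numbers, and all 3346 had the same sign in both groups. Lack of overlap in a called gene named below is thus no trait particular to it. Without ASP 2 the number of called genes was 1402, and without Control 2 it was 1481. Each of the other 4 libraries could be left out with 3214 to 3612 genes called.

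The difference was seen in either group. Of the 620 genes at least 2-fold higher in Control 3 than in Control 2, 583 (94.0%) were also higher in ASP 3 than in ASP 2, with a median log2 difference of 1.13 there. Of the 723 genes at least 2-fold lower in Control 3, 671 (92.8%) were also lower in ASP 3, with a median of −1.16. The ASP pair and the Control pair share no library, and over all genes tested their differences had a Pearson correlation of 0.697 across genes and the same sign in 73.2%. Genes are not independent replicates, so this is a description. The median absolute log2 difference per gene was 0.277 between ASP 3 and ASP 2 and 0.291 between Control 3 and Control 2. It was 0.175 between ASP 3 and Control 3, and 0.123 between ASP 2 and Control 2. Aspartame itself gave 0 genes in the test of ASP against Control over all 6 libraries, with 62 genes at an unadjusted p under 0.05. With the replicate number as a block, 0 genes were called and 369 had an unadjusted p under 0.05. DESeq2 (73 genes under 0.05) and limma (71 genes) also called 0.

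**Figure D1:**
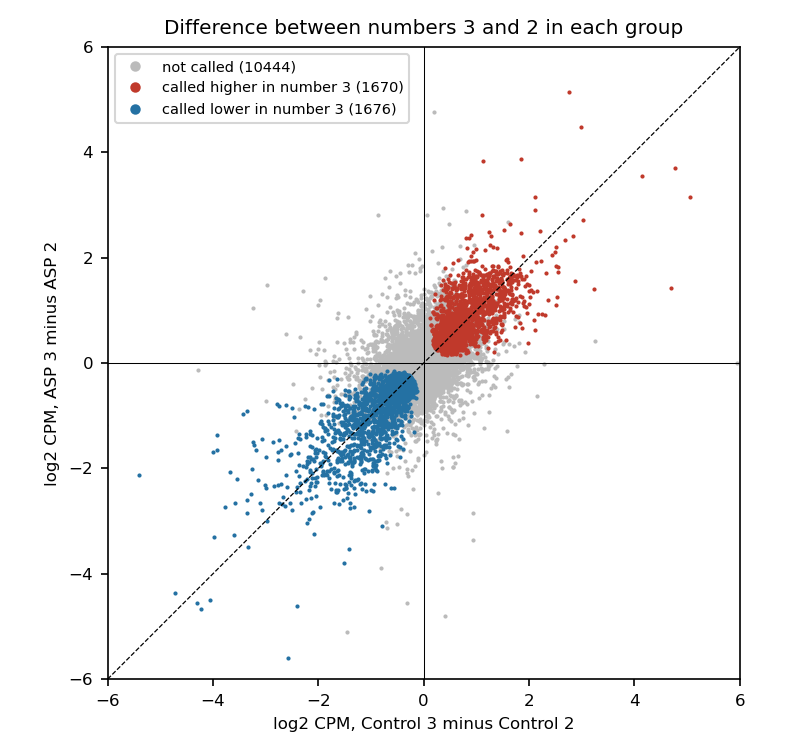
Difference in log2 CPM (counts scaled to library size by TMM) of each tested gene between Control 3 and Control 2 (horizontal axis) and between ASP 3 and ASP 2 (vertical axis). Red points are the 1670 genes called higher in number 3, blue points the 1676 called lower and grey points the rest, and the dashed line marks equal differences. Called genes lie along the dashed line in both directions. The joint fit favours genes with like differences in both pairs, so this follows in part from the call.

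The number 1 libraries give a further point of comparison. Number 3 differed from number 1 at 5167 genes (37.5%), while number 2 differed from number 1 at 530 genes (3.84%). These comparisons share libraries with the one reported here, so their values are given only side by side.

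Total counts were 53926593 in ASP 3 and 63581942 in Control 3, against 57702213 in ASP 2 and 55252845 in Control 2. Between 19738 and 20215 genes had a count above 0 in these 4 libraries. Genes for ribosomal RNA took 7.19% of counts in ASP 3 and 5.26% in Control 3, against 5.74% in ASP 2 and 5.81% in Control 2. Muscle, neuron, gut, epidermis, oocyte and sperm markers were detected in all of them. The 8 genes of the male neuron list, pkd-2 among them, were all under the 1 FPKM minimum, as was hch-1, a hatching protease of late embryos.

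Among the lists examined, cuticle collagens held the most called genes. The col genes encode short secreted collagens, and 57 of the 115 tested were higher in number 3 while 33 were lower, against 12.1% and 12.2% of all genes. The counts of every list that follows are to be read against these same shares. Another 39 col genes of the 154 in the table were under the expression minimum and were not tested. The 57 genes called higher summed to 32867 FPKM in ASP 3 and 37567 FPKM in Control 3, against 17273 FPKM in ASP 2 and 17476 FPKM in Control 2. In contrast, the 33 genes called lower summed to 11395 FPKM in ASP 3 and 14786 FPKM in Control 3, against 30680 FPKM in ASP 2 and 28675 FPKM in Control 2. These sums follow the choice of the genes, and no test was made of them. Over the whole family the sums lay closer together, 49535 FPKM in ASP 3 and 58783 FPKM in Control 3, against 54530 FPKM in ASP 2 and 52180 FPKM in Control 2. One set of cuticle collagens was thus higher where another was lower. In RNA from whole animals, fewer cells of a type and less RNA per cell cannot be told apart, and the same holds for the results that follow.

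Among the col genes that fell was col-19 (gene 180397, chromosome X, 421707 to 422691), a collagen of the adult cuticle. It had 482 FPKM in ASP 3 and 644 FPKM in Control 3, against 1234 FPKM in ASP 2 and 1184 FPKM in Control 2 (log2 −1.03, SE 0.15, adjusted p = 0.00176). Both number 3 libraries lay below both number 2 libraries, as they did for the 4 col genes with the largest differences. The largest was in col-8 (gene 175981, chromosome III, 7019583 to 7020600), with 84.5 FPKM in ASP 3 and 87.5 FPKM in Control 3, against 474 FPKM in ASP 2 and 489.6 FPKM in Control 2 (log2 −2.39, SE 0.11, adjusted p = 2.74e-05). Close behind came col-142 (log2 −2.29), col-143 and col-80 (log2 −1.999). The gene col-80 was abundant, at 307 FPKM in ASP 3 and 375 FPKM in Control 3, against 1445 FPKM in ASP 2 and 1441 FPKM in Control 2. A further adult collagen gene, col-7, had 82.3 FPKM in ASP 3 and 122.8 FPKM in Control 3, against 324 FPKM in ASP 2 and 265 FPKM in Control 2 (log2 −1.45, SE 0.19, adjusted p = 0.00130). All 6 of these genes were past the threshold with any single library left out, col-7 included. Reads of near-identical collagen copies may be split by the counting, so single col values are less certain than the family counts.

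**Figure D2:**
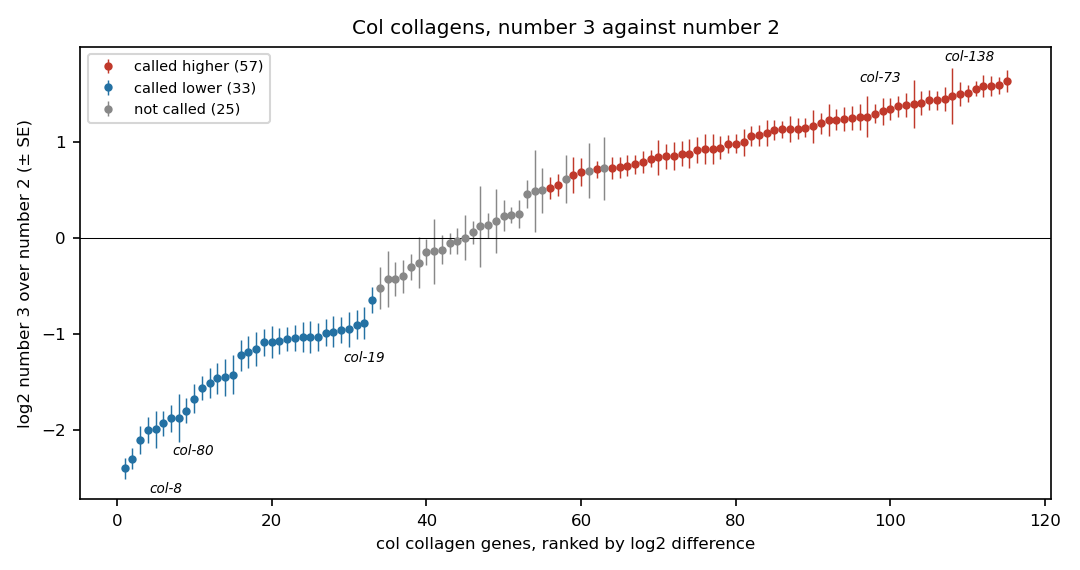
Log2 difference between number 3 and number 2 (vertical axis, bars ± SE from the edgeR fit) for the 115 tested col collagen genes, ranked along the horizontal axis. Red points are the 57 called higher, blue the 33 called lower and grey the 25 not called, and the family splits into a higher and a lower branch with few genes near 0.

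The tested collagens that shape the body and form the cuticle furrows all pointed one way. Of 18 tested, 17 were higher in number 3 and none was lower, with a median log2 difference of 1.42 (1.57 in the ASP pair and 1.31 in the Control pair). The count was 12 without ASP 2 and 13 without Control 2. Of the 20 in the table, dpy-14 and dpy-17 were under the expression minimum. At that low level dpy-17 went the other way, with 0.484 FPKM in ASP 3 and 0.589 FPKM in Control 3, against 1.21 FPKM in ASP 2 and 0.739 FPKM in Control 2. The dumpy collagen gene dpy-13 (gene 177187, chromosome IV, 4235614 to 4236710) had 1942 FPKM in ASP 3 and 2029 FPKM in Control 3, against 630.1 FPKM in ASP 2 and 660.4 FPKM in Control 2 (log2 1.72, SE 0.11, adjusted p = 7.08e-05). A second dumpy gene, dpy-4, was at a like level, with 1964 FPKM in ASP 3 and 2057 FPKM in Control 3, against 643 FPKM in ASP 2 and 732 FPKM in Control 2 (log2 1.65). Neither gene had overlapping values between the numbers. For sqt-3, a collagen needed for body shape from the embryo on, the values were 686 FPKM in ASP 3 and 645 FPKM in Control 3, against 209 FPKM in ASP 2 and 254 FPKM in Control 2 (log2 1.62). The roller collagen gene rol-6 (gene 174397, chromosome II, 8733050 to 8734239) had 213 FPKM in ASP 3 and 208 FPKM in Control 3, against 64.5 FPKM in ASP 2 and 92.2 FPKM in Control 2 (log2 1.55, SE 0.12, adjusted p = 1.07e-04) and the roller gene rol-8 had a log2 difference of 1.57. The struts that join the layers of the adult cuticle contain BLI-1. Its gene bli-1 (gene 174653, chromosome II, 10708960 to 10712156) had 95.6 FPKM in ASP 3 and 73.6 FPKM in Control 3, against 31.3 FPKM in ASP 2 and 40.3 FPKM in Control 2 (log2 1.35, SE 0.16, adjusted p = 7.25e-04). The furrow collagen gene dpy-7 rose less, with 48.0 FPKM in ASP 3 and 31.7 FPKM in Control 3, against 18.7 FPKM in ASP 2 and 25.6 FPKM in Control 2 (log2 0.96, SE 0.23, adjusted p = 0.0201), and was not past the threshold without ASP 2 (adjusted p = 0.216) or without Control 2 (adjusted p = 0.0825). In ASP 1 and Control 1, rol-6 had 38.4 and 51.96 FPKM and bli-1 had 11.96 and 15.7 FPKM, under both number 2 libraries.

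Enzymes that modify collagen chains rose in part. Of 13 tested, 7 were called higher and none lower (median log2 0.33), with 4 called without ASP 2. The prolyl 4-hydroxylase gene dpy-18 had 151 FPKM in ASP 3 and 151 FPKM in Control 3, against 62.3 FPKM in ASP 2 and 76.4 FPKM in Control 2 (log2 1.22, SE 0.11, adjusted p = 1.95e-04). The thioredoxin-like gene dpy-11 had a log2 difference of 0.98, and let-268, a lysyl hydroxylase gene, of 0.87. Cuticlins and other zona pellucida proteins are part of the cuticle beside the collagens, and 10 of the 21 tested were higher with none lower. That count was 5 without ASP 2 and 4 without Control 2. The cuticlin gene cut-2 (gene 179823, chromosome V, 13414949 to 13416064) was the most abundant of them, with 482 FPKM in ASP 3 and 551 FPKM in Control 3, against 158 FPKM in ASP 2 and 171 FPKM in Control 2 (log2 1.75, SE 0.10, adjusted p = 5.72e-05). Of the matrix genes needed at each molt, noah-1 had 38.1 FPKM in ASP 3 and 21.9 FPKM in Control 3, against 13.96 FPKM in ASP 2 and 18.3 FPKM in Control 2. The related gene noah-2 had 49.5 FPKM in ASP 3 and 33.1 FPKM in Control 3, against 18.4 FPKM in ASP 2 and 24.5 FPKM in Control 2. Both were called higher (adjusted p = 0.0318 and 0.0126), and neither passed without ASP 2 (adjusted p = 0.272 and 0.162) or without Control 2 (adjusted p = 0.121 and 0.0759). Without ASP 3, noah-1 also missed the threshold (adjusted p = 0.0632). Here ASP 3 stood above Control 3, while ASP 2 stood below Control 2.

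Of 25 genes required for molting that were tested, 17 rose and none fell (median log2 0.83). The median was 1.04 in the ASP pair and 0.62 in the Control pair. Without ASP 2 the count was 8 and without Control 2 it was 10. The secreted molting proteins were among the clearest. For mlt-10 (gene 173445, chromosome II, 546705 to 552032) the values were 101 FPKM in ASP 3 and 91.3 FPKM in Control 3, against 36.9 FPKM in ASP 2 and 42.5 FPKM in Control 2 (log2 1.37, SE 0.09, adjusted p = 7.88e-05), and for mlt-8 they were 272 FPKM in ASP 3 and 261 FPKM in Control 3, against 99.2 FPKM in ASP 2 and 115 FPKM in Control 2 (log2 1.41). In ASP 1 and Control 1, mlt-10 stood at 18.9 and 18.8 FPKM. The gene acn-1, for a protein related to angiotensin-converting enzyme that molting larvae need, had 44.1 FPKM in ASP 3 and 40.9 FPKM in Control 3, against 17.3 FPKM in ASP 2 and 18.7 FPKM in Control 2 (log2 1.33). Its values did not overlap between the numbers. Astacin metalloproteases cut the old cuticle and other matrices, and 11 of 26 were higher while 2 were lower. This list overlaps that of the molting genes, and nas-6 is counted as higher in both. The astacin genes nas-14 and nas-15 had log2 differences of 1.77 and 1.54. The opposite was found for nas-9, with 2.81 FPKM in ASP 3 and 2.84 FPKM in Control 3, against 10.6 FPKM in ASP 2 and 9.45 FPKM in Control 2 (log2 −1.73, SE 0.16, adjusted p = 2.08e-04). The molting protease gene nas-37 rose by log2 0.70 (adjusted p = 0.0211), which did not hold without ASP 2 (adjusted p = 0.228), ASP 3 (0.0616) or Control 2 (0.0541).

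Hedgehog-related ligands and patched-related receptors are large nematode families that act in the epidermis, in cuticle formation and in molting, without the canonical hedgehog pathway of flies. Of 34 ligands tested, 22 were higher and 3 lower (median log2 0.86, with 0.98 in the ASP pair and 0.63 in the Control pair). Of 25 receptors tested, 18 were higher and 3 lower (median log2 0.79, with 1.11 in the ASP pair and 0.53 in the Control pair). Without ASP 2 the counts of higher genes were 13 ligands and 8 receptors. The warthog gene wrt-8 had 33.8 FPKM in ASP 3 and 33.2 FPKM in Control 3, against 10.6 FPKM in ASP 2 and 12.7 FPKM in Control 2 (log2 1.62, SE 0.11, adjusted p = 8.11e-05). The groundhog-like gene grd-2 was rarer, with 10.7 FPKM in ASP 3 and 7.72 FPKM in Control 3, against 2.06 FPKM in ASP 2 and 3.49 FPKM in Control 2 (log2 1.86, SE 0.25, adjusted p = 0.00135). Against the majority, grd-3 (gene 177109, chromosome IV, 3439655 to 3440453) had 20.3 FPKM in ASP 3 and 17.2 FPKM in Control 3, against 72.4 FPKM in ASP 2 and 68.8 FPKM in Control 2 (log2 −1.82, SE 0.15, adjusted p = 1.39e-04), and grd-10 had a log2 difference of −1.36. Both genes were lower in either number 3 library than in either number 2 library. Among the receptors, ptr-11, ptr-4, ptr-16 and ptr-18 had log2 differences of 1.398, 1.38, 1.33 and 1.32. The values of ptr-4, needed for molting, were 32.8 FPKM in ASP 3 and 24.1 FPKM in Control 3, against 10.02 FPKM in ASP 2 and 13.2 FPKM in Control 2.

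Regulators that time the molts changed in part, with a median log2 difference of 0.64 in the ASP pair and 0.33 in the Control pair. Of 11 tested, 6 were higher and 1 lower (median log2 0.48), and the count of higher genes was 2 without ASP 2 and 3 without ASP 3. The gene lin-42 (gene 173503, chromosome II, 1233236 to 1244035), the nematode relative of the clock gene period, had 56.4 FPKM in ASP 3 and 50.4 FPKM in Control 3, against 26.2 FPKM in ASP 2 and 31.2 FPKM in Control 2 (log2 0.99, SE 0.10, adjusted p = 2.48e-04). Its level was higher in both number 3 libraries, as was that of bed-3 (log2 1.02), a zinc finger factor of the same cycle. The nuclear receptor gene nhr-23, which drives molting genes, was not called, with 22.1 FPKM in ASP 3 and 20.4 FPKM in Control 3, against 18.8 FPKM in ASP 2 and 20.05 FPKM in Control 2 (log2 0.22, SE 0.09, adjusted p = 0.102). The epidermal GATA factor gene elt-3 had 14.6 FPKM in ASP 3 and 12.9 FPKM in Control 3, against 22.6 FPKM in ASP 2 and 21.3 FPKM in Control 2 (log2 −0.58, SE 0.10, adjusted p = 0.00507), and did not pass without ASP 2 (adjusted p = 0.0693). Heterochronic genes set the order of larval stages, and of the 13 tested 2 were higher, 1 lower and 10 not called. As shares, 15.4% were higher and 7.69% lower, against 12.1% and 12.2% of all genes. The higher count was 1 without ASP 2 or Control 2 and 4 without ASP 3 or Control 3. The early-stage genes lin-14 (log2 0.24, adjusted p = 0.0836) and lin-28 (log2 −0.16, adjusted p = 0.273) were among those 10, and lin-14 passed without ASP 3 (adjusted p = 0.0260). The zinc finger gene lin-29, which starts the larval-to-adult switch, had 16.19 FPKM in ASP 3 and 11.2 FPKM in Control 3, against 9.33 FPKM in ASP 2 and 9.53 FPKM in Control 2 (log2 0.61, SE 0.13, adjusted p = 0.0129), and missed the threshold without ASP 2 (0.152) or Control 2 (0.0547). The gene dre-1, for an F-box protein of the same pathway, rose (log2 0.74), and lin-41, whose product also works in oocytes, fell (log2 −0.64). Of 16 genes of vulva and gonad development, 3 were higher (18.75%) and 1 lower (6.25%), with mig-6, an extracellular matrix gene, at log2 0.45. Without ASP 2, 1 was called higher, and the lower gene, lin-3, missed the threshold in each fit with a library left out (adjusted p 0.0579 to 0.1998).

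**Figure D3:**
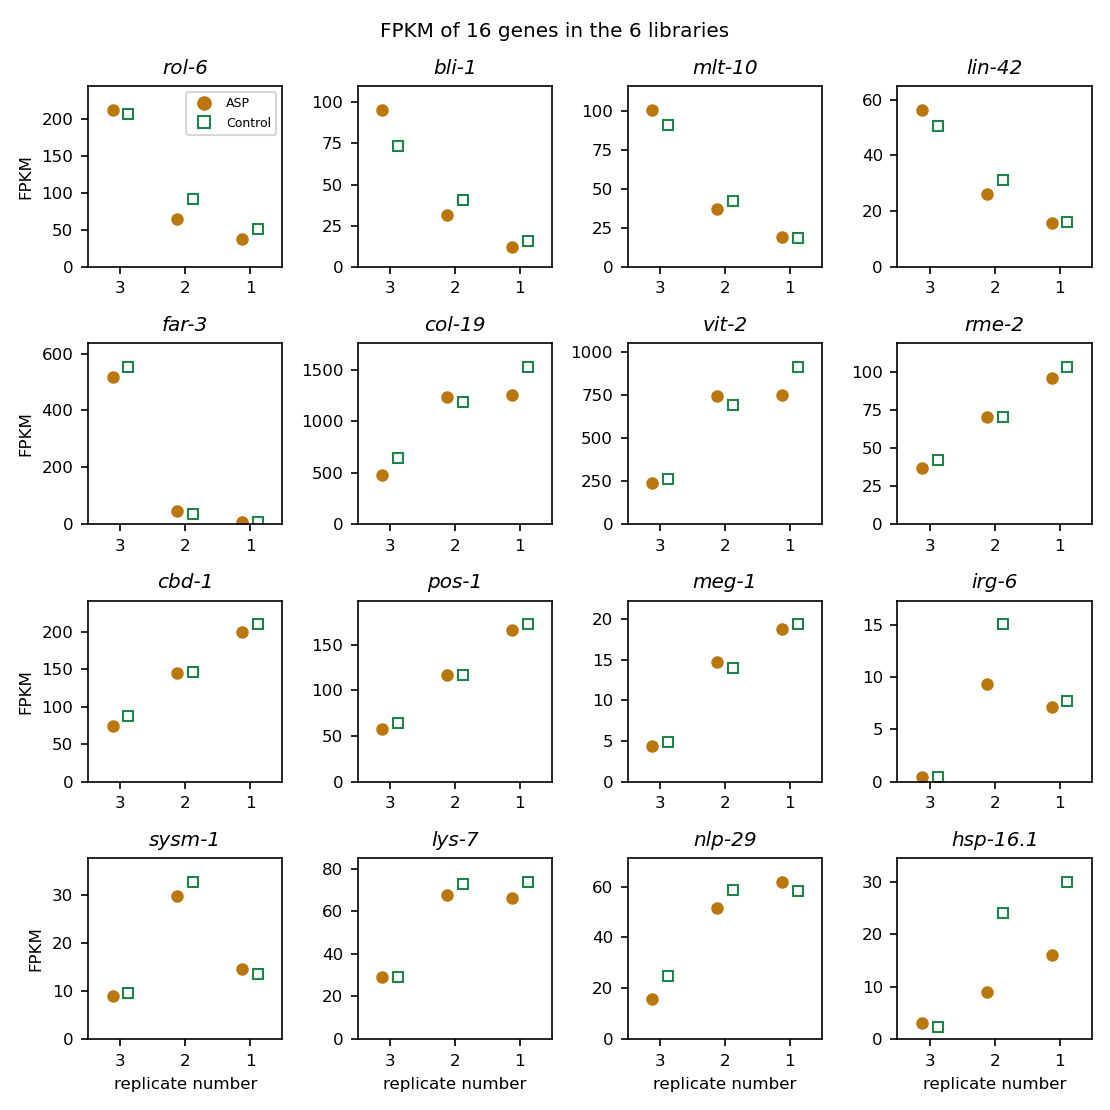
FPKM (vertical axes, linear from 0, scaled per gene) of 16 genes in the libraries numbered 3, 2 and 1 (horizontal axes), with ASP as filled circles and Control as open squares. The cuticle and molting genes and far-3 are highest in the number 3 libraries, while the yolk, eggshell, maternal and defence genes and col-19 are lowest there.

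Yolk genes moved against the molting genes. All 6 vitellogenin genes tested and rme-2, the oocyte receptor that takes yolk up, were lower in number 3 (7 of 7, median log2 −1.36, with −1.53 in the ASP pair and −1.17 in the Control pair). The count was 7 in each fit with a library left out. For vit-2 (gene 180781, chromosome X, 5101042 to 5106169) the values were 242 FPKM in ASP 3 and 261 FPKM in Control 3, against 741 FPKM in ASP 2 and 691 FPKM in Control 2 (log2 −1.42, SE 0.15, adjusted p = 4.18e-04). The difference was of like size in vit-5 (111 FPKM in ASP 3 and 109 FPKM in Control 3, against 411 FPKM in ASP 2 and 377 FPKM in Control 2, log2 −1.75), although vit-3, vit-4 and vit-5 are close copies whose reads may be split. The single-copy gene vit-6 had 309 FPKM in ASP 3 and 352 FPKM in Control 3, against 884 FPKM in ASP 2 and 833 FPKM in Control 2 (log2 −1.29, SE 0.16, adjusted p = 7.86e-04). Thus no number 3 library reached the level of a number 2 library in any of them, as in 3338 of all 3346 called genes. The receptor gene rme-2 had 37.04 FPKM in ASP 3 and 41.9 FPKM in Control 3, against 70.6 FPKM in ASP 2 and 70.4 FPKM in Control 2 (log2 −0.75, SE 0.09, adjusted p = 9.66e-04), a smaller difference than those of the yolk genes. In ASP 1 and Control 1, vit-2 stood at 749 and 912 FPKM and rme-2 at 95.7 and 103 FPKM.

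Many eggshell and oocyte genes were lower as well. Of 18 eggshell assembly genes, 14 were lower and none higher (median log2 −0.69), with 12 called without ASP 2 and 13 without Control 2. The chitin-binding eggshell gene cbd-1 (gene 178061, chromosome IV, 11372991 to 11377627) had 73.8 FPKM in ASP 3 and 87.5 FPKM in Control 3, against 145 FPKM in ASP 2 and 147 FPKM in Control 2 (log2 −0.76, SE 0.11, adjusted p = 0.00190). The chondroitin proteoglycan genes cpg-1, cpg-2 and cpg-3 had log2 differences of −0.74, −0.87 and −0.86, and the chitin synthase gene chs-1 of −0.85. Of 27 maternal RNA-binding protein genes, 19 were lower and none higher (median log2 −0.57). The embryonic fate regulator gene pos-1 had 57.2 FPKM in ASP 3 and 64.8 FPKM in Control 3, against 117 FPKM in ASP 2 and 117 FPKM in Control 2 (log2 −0.85, SE 0.09, adjusted p = 4.52e-04). For oma-1 and oma-2, which act in oocyte maturation, the log2 differences were −0.54 and −0.86, and for the Nanos gene nos-2 −1.12. Each of these genes was lower in both number 3 libraries. The translational repressor gene gld-1, active earlier in the germ line, was not called, with 218 FPKM in ASP 3 and 249 FPKM in Control 3, against 286 FPKM in ASP 2 and 287 FPKM in Control 2 (log2 −0.20, adjusted p = 0.213). The germline stem cell receptor gene glp-1 differed by log2 −0.30 (adjusted p = 0.0413) and did not pass with any library but Control 3 left out (adjusted p 0.0530, 0.0745, 0.0689, 0.0516 and 0.275 without ASP 1, ASP 2, ASP 3, Control 1 and Control 2).

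Among general germline genes fewer passed the test. P granules are RNA bodies of germ cells, and of 19 component genes 2 were higher, 6 lower and 11 not called (median log2 −0.12). Without ASP 2, 2 were called lower, and without Control 2, 3. None was called higher without Control 2 or Control 3, and 1 without ASP 1, ASP 2 or Control 1. The core component gene pgl-1 had 125 FPKM in ASP 3 and 132 FPKM in Control 3, against 129.6 FPKM in ASP 2 and 131 FPKM in Control 2 (log2 0.075, adjusted p = 0.572). The sign of that small value was negative with library totals alone and with limma. The gene meg-1, which acts in the germ plasm of early embryos, stood apart from the list with 4.41 FPKM in ASP 3 and 4.92 FPKM in Control 3, against 14.7 FPKM in ASP 2 and 13.95 FPKM in Control 2 (log2 −1.52, SE 0.11, adjusted p = 9.51e-05). Of 30 meiotic axis and synapsis genes 3 were called lower, and none in the fits without ASP 1, ASP 2, Control 1 or Control 2. The synapsis gene syp-1 had 17.6 FPKM in ASP 3 and 16.37 FPKM in Control 3, against 15.6 FPKM in ASP 2 and 17.4 FPKM in Control 2 (log2 0.14, adjusted p = 0.290). Among Argonautes, the small-RNA binding proteins, 5 of 19 were higher and 2 lower, with 3 higher without Control 2 and 1 lower without ASP 2. The higher ones included alg-3 (log2 0.54) and alg-4 (log2 0.65), which act in sperm formation, and wago-10 (log2 1.07). The germline microRNA Argonaute gene alg-5 was lower (log2 −0.51).

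DNA replication genes were lower in 11 of 32 cases and higher in none (median log2 −0.24), and mitotic genes in 11 of 40 and none (median log2 −0.16). The replication count was 2 without ASP 2, 4 without Control 2 and 7 without Control 3. The mitotic count was 3 without ASP 2, 4 without Control 2 and 6 without ASP 3. The B-type cyclin gene cyb-2.2 had 34.9 FPKM in ASP 3 and 37.5 FPKM in Control 3, against 61.7 FPKM in ASP 2 and 69.0 FPKM in Control 2 (log2 −0.76, SE 0.08, adjusted p = 4.22e-04), and cyb-3 had a log2 difference of −0.62. For dut-1, the enzyme that keeps uracil out of DNA, it was −0.64. The sliding clamp gene pcn-1 had 110.3 FPKM in ASP 3 and 106 FPKM in Control 3, against 139 FPKM in ASP 2 and 142 FPKM in Control 2 (log2 −0.28, adjusted p = 0.0348). It passed with no library but ASP 3 left out (adjusted p 0.0805, 0.153, 0.0797, 0.105 and 0.0878 without ASP 1, ASP 2, Control 1, Control 2 and Control 3). These mRNAs are also stored in oocytes, whose eggshell markers fell by a median of 0.69 on the log2 scale, and the part of oocyte content in them was not tested. Of 61 histone genes, 1 was called in each direction, and none in either without ASP 2, Control 2 or Control 3. Of 15 zygotic genes of early embryos only 4 reached the expression minimum, and 2 of these were lower, pal-1 among them (log2 −0.55), with neither called without ASP 2.

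Major sperm protein genes had medians of opposite sign in the ASP pair and the Control pair, a difference that was not tested. Major sperm proteins form the sperm cytoskeleton, and the 31 genes tested had a median log2 difference of −0.56 between ASP 3 and ASP 2, and of 0.24 between Control 3 and Control 2. Their summed level was 10311 FPKM in ASP 3 and 14617 FPKM in Control 3, against 15849 FPKM in ASP 2 and 13930 FPKM in Control 2. ASP 3 was thus the lowest of the 4 libraries and the other 3 lay close together. In the joint fit 1 gene, msp-74, was called higher and none lower. Without Control 3, however, 26 were called lower. The msp-74 call (log2 1.09, adjusted p = 0.0120) did not hold without ASP 2 (0.0596), Control 2 (0.129) or Control 3 (0.0629). The msp genes are near-identical copies, so values of single members are uncertain. Of 59 other sperm-function genes, 10 were higher (16.9%, against 12.1% of all genes) and 1 lower (1.69%, against 12.2%). The higher count was 20 without ASP 3, 2 without ASP 2, 3 without Control 2 and 5 without Control 3, and 17 were called lower without Control 3 and none without ASP 2. The presenilin-related gene spe-4 was higher in both groups, with 22 FPKM in ASP 3 and 19.3 FPKM in Control 3, against 12.04 FPKM in ASP 2 and 13.4 FPKM in Control 2 (log2 0.79, SE 0.11, adjusted p = 0.00173). The sperm phosphatase gene gsp-3 was not called, with 97.3 FPKM in ASP 3 and 119 FPKM in Control 3, against 103.7 FPKM in ASP 2 and 89.6 FPKM in Control 2 (adjusted p = 0.191), and passed without ASP 3 (adjusted p = 0.00537). For fer-1, a membrane fusion gene of sperm, the log2 difference was 0.71 (adjusted p = 0.00549), and it passed neither without ASP 2 (0.0783) nor without Control 2 (0.0518).

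Among antimicrobial and infection-responsive genes, more were called lower than higher in number 3. Of 25 gut immune effector genes, 12 were lower and 3 higher (median log2 −0.36), with 7 lower without Control 2 and 1 higher without ASP 2 or Control 2. The largest decrease among all genes that averaged at least 5 FPKM was that of irg-6 (gene 183126, chromosome IV, 12912722 to 12914969), an infection response gene. It had 0.413 FPKM in ASP 3 and 0.489 FPKM in Control 3, against 9.32 FPKM in ASP 2 and 15.01 FPKM in Control 2 (log2 −4.60, SE 0.21, adjusted p = 2.88e-05). Both number 3 libraries were under 1 FPKM. The p38 pathway target sysm-1 (gene 188838, chromosome II, 9082626 to 9083193) had 8.96 FPKM in ASP 3 and 9.72 FPKM in Control 3, against 29.9 FPKM in ASP 2 and 32.9 FPKM in Control 2 (log2 −1.65, SE 0.17, adjusted p = 3.79e-04), and irg-4 had 15.1 FPKM in ASP 3 and 13.6 FPKM in Control 3, against 38.6 FPKM in ASP 2 and 41.96 FPKM in Control 2 (log2 −1.397, SE 0.11, adjusted p = 1.20e-04). The values of either gene did not overlap between the numbers, and ASP 1 and Control 1 had 14.7 and 13.6 FPKM of sysm-1. The gene dod-22, which encodes a CUB-like secreted protein, had 13.1 FPKM in ASP 3 and 11 FPKM in Control 3, against 41.0 FPKM in ASP 2 and 53.0 FPKM in Control 2 (log2 −1.87). The C-type lectin gene clec-85 had a log2 difference of −1.52. Of the 12 genes of the p38 kinase pathway that controls such genes, 11 were not called. The exception was vhp-1, for a phosphatase that dampens the pathway's kinases, with log2 0.71 and adjusted p = 0.00148.

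C-type lectins, secreted or membrane proteins with sugar-binding folds, had 39 of 97 tested members lower and 7 higher (median log2 −0.34). Over number 1, their median log2 difference was −0.06 for number 3 and 0.12 for number 2. Without ASP 2, 21 were lower and 2 higher, and without Control 2, 20 were lower and 3 higher. The largest change was in clec-174 (gene 189943, chromosome IV, 3940259 to 3941708), with 3.58 FPKM in ASP 3 and 2.99 FPKM in Control 3, against 36.7 FPKM in ASP 2 and 52.8 FPKM in Control 2 (log2 −3.66, SE 0.19, adjusted p = 3.64e-05). This gene stood high only in the number 2 libraries, since ASP 1 and Control 1 had 2.18 and 1.94 FPKM. In the same way clec-86 had 36.4 FPKM in ASP 3 and 26.9 FPKM in Control 3, against 99.6 FPKM in ASP 2 and 113 FPKM in Control 2 (log2 −1.67), with 28.6 and 27.8 FPKM in ASP 1 and Control 1. By contrast clec-230 rose, with 32.04 FPKM in ASP 3 and 36.3 FPKM in Control 3, against 11.9 FPKM in ASP 2 and 10.6 FPKM in Control 2 (log2 1.70, SE 0.17, adjusted p = 2.91e-04). Lysozymes, saposin-like proteins and antibacterial factors had 8 of 30 members lower (26.7%) and 5 higher (16.7%), against 12.2% and 12.1% of all genes. The lower count was 3 without ASP 2, and 5 without ASP 3 or Control 2, and the higher count was 2 without ASP 2 or Control 2. The lysozyme gene lys-7 (gene 178772, chromosome V, 3481432 to 3482600) had 29.1 FPKM in ASP 3 and 29.3 FPKM in Control 3, against 67.6 FPKM in ASP 2 and 72.6 FPKM in Control 2 (log2 −1.17, SE 0.09, adjusted p = 9.51e-05). The saposin-like genes spp-23 and spp-18 had log2 differences of −1.60 and −1.17. The saposin-like gene spp-9, however, was higher with 19.1 FPKM in ASP 3 and 3.25 FPKM in Control 3, against 0.472 FPKM in ASP 2 and 0.420 FPKM in Control 2 (log2 4.29, SE 0.60, adjusted p = 0.00159). Its 2 number 3 libraries were far apart.

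Some peptide genes of the epidermis were lower too. Of 14 tested genes of the nlp and cnc antimicrobial families, 7 were lower and 1 higher (median log2 −0.73). The higher count was 0 without Control 2, 2 without ASP 1 or Control 1 and 3 without ASP 3. The wound- and fungus-induced peptide gene nlp-29 (gene 178805, chromosome V, 3984425 to 3984847) had 15.6 FPKM in ASP 3 and 24.96 FPKM in Control 3, against 51.7 FPKM in ASP 2 and 58.6 FPKM in Control 2 (log2 −1.36, SE 0.19, adjusted p = 0.00176). Of the same families, nlp-28 (log2 −2.16), nlp-26 (log2 −1.997) and nlp-27 (log2 −1.30) were lower too. Of 12 pals genes, a family linked to intracellular infection, 4 were lower and none higher, with 1 without Control 2 and 2 without Control 3.

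Heat shock genes were lower in 12 of 23 cases and higher in none (median log2 −0.89), with 7 called without Control 2. The small heat shock gene hsp-16.1 (gene 179286, chromosome V, 9087293 to 9087782) had 3.04 FPKM in ASP 3 and 2.24 FPKM in Control 3, against 9.01 FPKM in ASP 2 and 24.02 FPKM in Control 2 (log2 −2.39, SE 0.38, adjusted p = 0.00314). Control 2 had the highest value and both number 3 libraries the lowest. The hsp-70 family genes F44E5.4 and F44E5.5 had log2 differences of −2.79 and −2.73. Both they and the hsp-16 pairs are near-identical copies, so the members of a pair do not give separate evidence. Over the heat shock list, the median log2 difference was −0.43 in the ASP pair and −0.79 in the Control pair. Its summed level differed less, with 2937 FPKM in ASP 3 and 3049 FPKM in Control 3, against 3286 FPKM in ASP 2 and 3557 FPKM in Control 2. The inducible gene hsp-70 had 0.760 FPKM in ASP 3 and 0.396 FPKM in Control 3, against 2.05 FPKM in ASP 2 and 6.92 FPKM in Control 2 (log2 −2.63, SE 0.52, adjusted p = 0.00797) and did not pass without Control 2 (adjusted p = 0.0843). For hsp-16.2 the values were 0.349 FPKM in ASP 3 and 0.170 FPKM in Control 3, against 0.787 FPKM in ASP 2 and 2.72 FPKM in Control 2 (log2 −2.35, adjusted p = 0.0296), with adjusted p 0.0787, 0.232 and 0.169 without ASP 2, Control 2 and Control 3. Of 21 chaperone genes of the endoplasmic reticulum, through which collagens are secreted, 5 were higher (23.8%, against 12.1% of all genes), none was lower and 16 were not called (median log2 0.17). The BiP gene hsp-4 had 196 FPKM in ASP 3 and 188 FPKM in Control 3, against 137 FPKM in ASP 2 and 153 FPKM in Control 2 (log2 0.50, SE 0.09, adjusted p = 0.00456), the thioredoxin-domain gene dnj-27 a log2 difference of 0.81, and the protein disulfide isomerase gene pdi-1 one of 0.50. Of 33 proteasome subunit genes 3 were higher, with 7 without ASP 3, 1 without ASP 2 and none without Control 2. No cytosolic ribosomal protein gene of 81 passed in either direction, with 16 called higher without ASP 2, 2 without ASP 3 and 9 in DESeq2. Their median log2 difference was −0.044 between ASP 3 and ASP 2, and 0.32 between Control 3 and Control 2. Of 70 mitochondrial ribosomal protein genes, 1 was called, mrps-9, which missed the threshold in each fit with a library left out (adjusted p 0.0566 to 0.189).

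Lipid genes held one of the largest increases. The gene far-3 (gene 179785, chromosome V, 12996787 to 12997522), one of the secreted fatty acid and retinol binding proteins, had 517 FPKM in ASP 3 and 553 FPKM in Control 3, against 45.7 FPKM in ASP 2 and 34.3 FPKM in Control 2 (log2 3.84, SE 0.15, adjusted p = 2.55e-05). The fitted difference was 14.3-fold, and ASP 1 and Control 1 had 8.74 and 9.13 FPKM. Of the 16 lipid-binding genes tested, 4 were higher and 1 lower, and the higher count was 2 without ASP 2, ASP 3 or Control 3 and 1 without Control 2. The lower one was lbp-7, an intracellular lipid carrier gene, with 76.8 FPKM in ASP 3 and 85.2 FPKM in Control 3, against 201 FPKM in ASP 2 and 164 FPKM in Control 2 (log2 −1.07). Fatty acid desaturases, elongases and related genes had 8 of 22 members higher and 2 lower. The higher count was 3 without ASP 2 and 4 without Control 2, and the lower count was 6 without ASP 3 and 1 without ASP 2, Control 2 or Control 3. The stearoyl-CoA desaturase gene fat-7 (gene 179100, chromosome V, 7151353 to 7153146) had 19.1 FPKM in ASP 3 and 22.7 FPKM in Control 3, against 10.7 FPKM in ASP 2 and 7.39 FPKM in Control 2 (log2 1.30, SE 0.22, adjusted p = 0.00413). Acetyl-CoA carboxylase, encoded by pod-2 and needed for fatty acid synthesis, was lower (log2 −0.52). The acyl-CoA dehydrogenase gene acdh-1 of the propionate shunt had 1.43 FPKM in ASP 3 and 2.23 FPKM in Control 3, against 3.98 FPKM in ASP 2 and 4.80 FPKM in Control 2 (log2 −1.16, SE 0.15, adjusted p = 0.00119). It was low in all 4 libraries beside ASP 1 and Control 1, which had 349.7 and 364 FPKM. The other 14 genes of propionate and B12 metabolism had 2 called higher and none lower, and neither of the 2 was called without ASP 1, ASP 2, ASP 3 or Control 1.

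Detoxification genes were called in both directions. Of 50 UDP-glucuronosyltransferases 16 were lower and 5 higher, of 37 cytochrome P450 genes 8 were lower and 4 higher, and of 35 glutathione S-transferases 7 were lower and 3 higher. As shares, 32%, 21.6% and 20% were lower, against 12.2% of all genes, and 10%, 10.8% and 8.57% were higher, near or under the 12.1% of all genes. Number 3 was not low beside number 1, with median log2 differences over number 1 of 0.06, 0.08 and 0.07 in the same order. Those of number 2 over number 1 were 0.23, 0.29 and 0.03. Without ASP 2 the lower counts were 6, 3 and 3, and without Control 2 they were 7, 4 and 2. Higher glucuronosyltransferases numbered 1 without ASP 2 and 3 without Control 2. Higher P450 genes numbered 1 without ASP 2, 2 without Control 2, 7 without ASP 1 and 9 without Control 3, and lower ones 5 without ASP 3. Higher glutathione S-transferases numbered 5 without ASP 1, ASP 3 or Control 1. The conjugating enzyme gene ugt-63 had 7.38 FPKM in ASP 3 and 5.16 FPKM in Control 3, against 28.7 FPKM in ASP 2 and 19.7 FPKM in Control 2 (log2 −1.86). The P450 gene cyp-13B1 had 18.5 FPKM in ASP 3 and 9.08 FPKM in Control 3, against 4.05 FPKM in ASP 2 and 4.17 FPKM in Control 2 (log2 1.77), and gst-10, which detoxifies lipid peroxidation products, had 135 FPKM in ASP 3 and 128 FPKM in Control 3, against 66.7 FPKM in ASP 2 and 66.2 FPKM in Control 2 (log2 1.08). Of these 3 genes ugt-63 was lower and the others higher in both number 3 libraries. Degradation of phenylalanine, a component of aspartame, had 9 genes tested, 3 of them lower and 1 higher, with none lower without ASP 2 or Control 2, and none higher without ASP 1, ASP 2, ASP 3, Control 1 or Control 2. Transthyretin-related secreted proteins had 18 of 54 members lower and 3 higher, with 8 lower without ASP 2 and 1 higher without Control 2 or Control 3. Among them ttr-8 had 7.22 FPKM in ASP 3 and 8.70 FPKM in Control 3, against 36.6 FPKM in ASP 2 and 31.2 FPKM in Control 2 (log2 −1.996) and ttr-59 had 13.4 FPKM in ASP 3 and 18.1 FPKM in Control 3, against 62.9 FPKM in ASP 2 and 51.9 FPKM in Control 2 (log2 −1.78). Of 20 insulin-like peptide genes 1 was lower, with none without ASP 2 or Control 2. Of 158 nuclear hormone receptor genes 5 were higher and 8 lower, which is 3.16% and 5.06% of them. Without ASP 2 or Control 2, 3 of the receptors were higher, and 1 and 2 were lower, with 5 lower without Control 3.

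In the lists of muscle, neuron and gut genes, some muscle genes were higher and few neuronal genes were called. The tissue in which a listed gene was expressed was not measured. Of 33 muscle sarcomere genes 11 were higher and none lower (median log2 0.32), with 4 called without Control 2 or Control 3 and 20 in DESeq2. The myosin heavy chain gene myo-3 had 59.0 FPKM in ASP 3 and 59.5 FPKM in Control 3, against 39.6 FPKM in ASP 2 and 46.3 FPKM in Control 2 (log2 0.56, SE 0.09, adjusted p = 0.00274), and the troponin I gene tni-1 a log2 difference of 0.55. The major myosin gene unc-54 had 396 FPKM in ASP 3 and 418 FPKM in Control 3, against 305 FPKM in ASP 2 and 337 FPKM in Control 2 (log2 0.44, adjusted p = 0.0432) and passed with no single library left out (adjusted p 0.0558 to 0.334). None of 30 FMRFamide-like peptide genes and 2 of 23 synaptic genes passed, with no synaptic gene without ASP 2 and 1 without ASP 1, Control 1 or Control 2. Gut structure and protease genes had 4 of 26 higher and 6 lower, and the lower count was 1 without ASP 2 and 3 without Control 2. The lysosomal cathepsin genes cpz-1 and cpr-6 were higher, cpz-1 with 362 FPKM in ASP 3 and 396 FPKM in Control 3, against 193 FPKM in ASP 2 and 192 FPKM in Control 2 (log2 1.07) and cpr-6 with a log2 difference of 0.97.

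**Figure D4:**
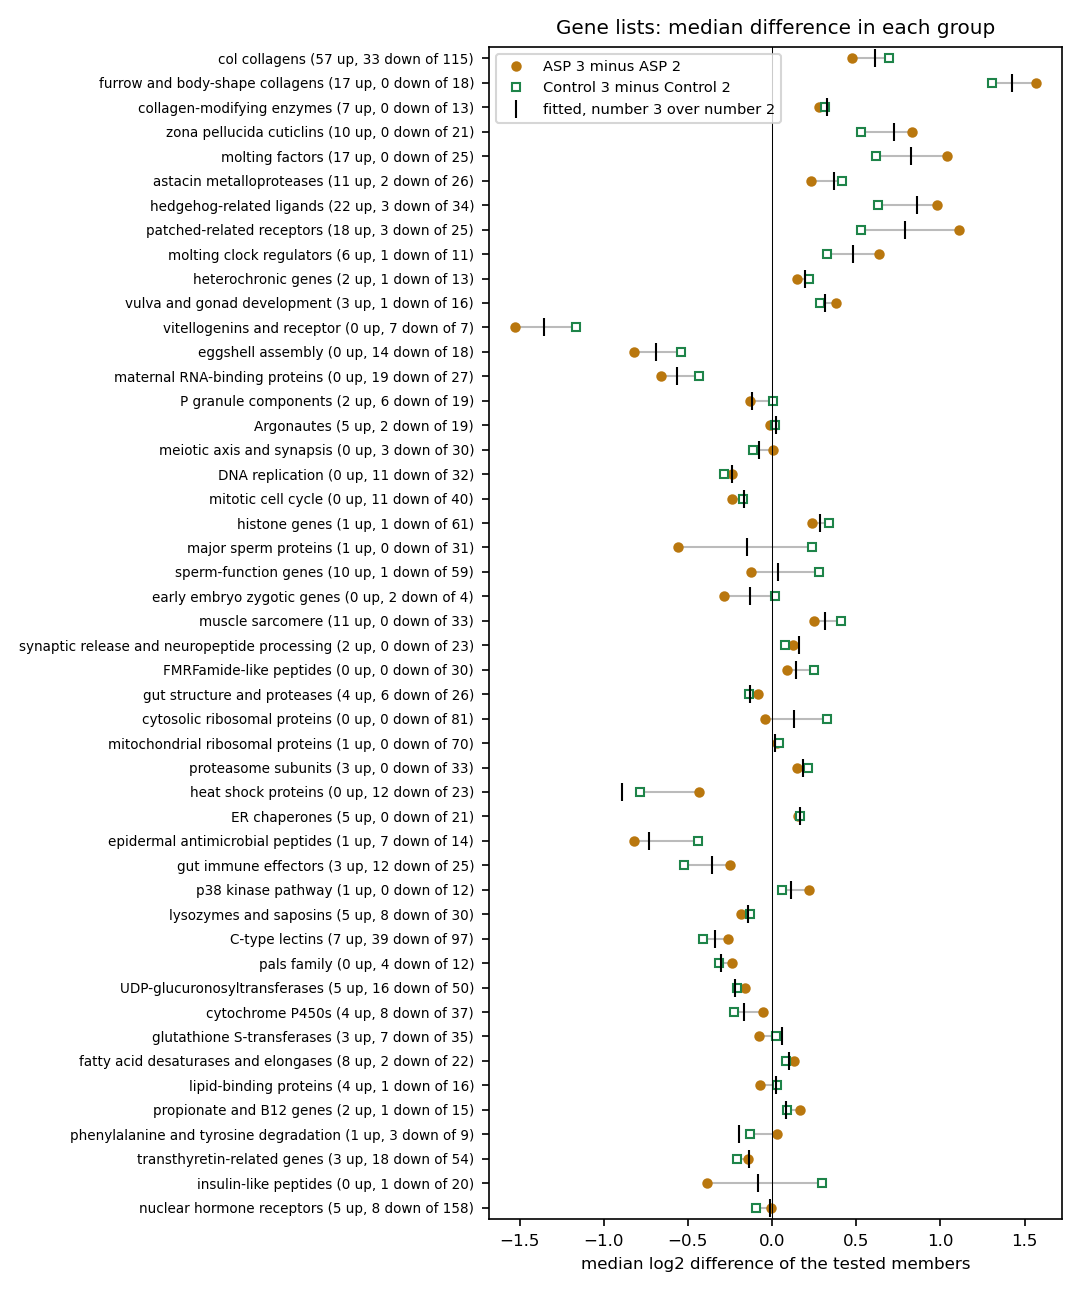
Median log2 difference of the tested members of 48 gene lists, between ASP 3 and ASP 2 (filled circles), between Control 3 and Control 2 (open squares) and in the joint fit (vertical marks), with the counts called higher (up) and lower (down) beside each name. Cuticle and molting lists lie to the right of 0 in both pairs, and yolk, eggshell and maternal lists to the left, while major sperm proteins lie left in the ASP pair and right in the Control pair.

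The genes with the largest changes were partly outside these lists. In total 529 of the 3346 called genes (15.8%) belonged to a list, as did 1585 of the 13790 tested genes. Some lists were near the shares of all genes, which were 12.1% higher and 12.2% lower. Higher genes made up 9.09% of proteasome subunits, 13.3% of propionate and B12 genes and 15.4% of gut structure and protease genes. Lower genes made up 10% of meiotic axis and synapsis genes. Among the 12 largest increases were kreg-1 (gene 186143, chromosome X, 8709764 to 8710015), with 37.4 FPKM in ASP 3 and 51.6 FPKM in Control 3, against 5.76 FPKM in ASP 2 and 6.85 FPKM in Control 2 (log2 2.91, SE 0.30, adjusted p = 3.49e-04), and F48C1.9 on chromosome I, with 19.6 FPKM in ASP 3 and 21.2 FPKM in Control 3, against 1.42 FPKM in ASP 2 and 0.720 FPKM in Control 2 (log2 4.35, SE 0.47, adjusted p = 4.30e-04). The near-identical pair pqn-90 and pqn-91, named for stretches rich in glutamine and asparagine, had log2 differences of 2.22 and 2.16, and F08G2.5 and M02G9.2 had 2.32 and 2.19. The increase of K06H6.2 (log2 2.21, adjusted p = 0.0158) did not pass without ASP 2 (0.195), ASP 3 (0.134) or Control 2 (0.110). Of the 12 largest decreases, T13F3.6 (gene 180092, chromosome V, 16270300 to 16271221) had 0.824 FPKM in ASP 3 and 0.790 FPKM in Control 3, against 21.3 FPKM in ASP 2 and 18.4 FPKM in Control 2 (log2 −4.51, SE 0.20, adjusted p = 2.55e-05). Both number 3 libraries were under 1 FPKM. On chromosome X, C49F5.7 had 10.9 FPKM in ASP 3 and 9.57 FPKM in Control 3, against 78.6 FPKM in ASP 2 and 89.8 FPKM in Control 2 (log2 −2.94, SE 0.13, adjusted p = 2.55e-05). The remaining ones included F55G11.4 (log2 −3.45), C08F11.12 (log2 −3.30), drd-50 (log2 −3.19), Y45F10C.2 (log2 −3.16), fipr-13 (log2 −2.91) and C33A12.19 (log2 −2.89).

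By chromosome, X held the largest share of higher genes and V the largest share of lower ones. On X, 343 of 1887 tested genes were higher (18.2%) and 11.9% were lower, with a median log2 difference of 0.10 over all its genes. The part of all FPKM that came from X was not higher in both number 3 libraries. It was 7.92% in ASP 3 and 7.63% in Control 3, against 7.86% in ASP 2 and 8.05% in Control 2. On V, 11.6% were higher and 15.6% lower. The 4 other chromosomes had 10.02% to 12.61% higher and 10.3% to 12.82% lower. Called genes also stood near each other. The next tested gene along the chromosome was called higher for 297 of 1669 genes called higher (17.8%), against 12.1% of all genes. It was called lower for 312 of 1676 genes called lower (18.6%), against 12.2%. The part of adjacent gene copies and overlapping genes in these counts was not tested.

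**Figure D5:**
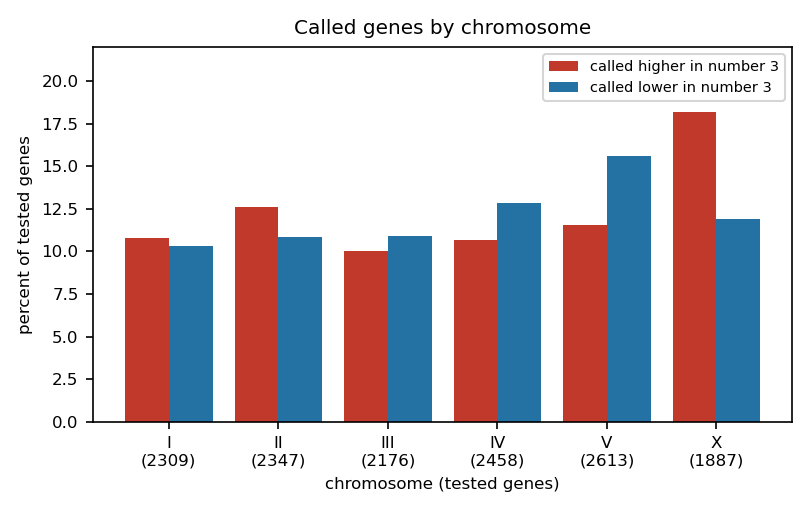
Percent of tested genes called higher (red) and lower (blue) in number 3 (vertical axis) on each of the 6 nuclear chromosomes (horizontal axis, tested genes in brackets). X has the tallest red bar at 18.2% and V the tallest blue bar at 15.6%.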

How the data were processed

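Poly(A)-selected RNA of whole N2 animals was measured in 6 libraries, 3 ASP and 3 Control. The table as deposited gives FPKM per gene and library, scaled by the authors to length and depth, per the file headers. It also holds estimated counts, deposited as whole numbers, per the file headers, and all columns were used. The counting tool is not given in the sources used here, nor is any use of strand, so overlapping and antisense genes cannot be told apart. CASAVA 1.4 and 2 mouse builds, mm9 and mm10, are named in the submitters' processing notes. Chromosome accessions of the deposited table belong to C. elegans WBcel235, and coordinates are as it gives them.

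All genes averaging 1 FPKM or more over the 6 libraries were tested with edgeR 4.0.16 (quasi-likelihood, TMM, R 4.3.3) on the counts, with group and replicate number as terms. The contrast was number 3 minus number 2, and p-values were Benjamini-Hochberg adjusted over all 13790 genes at 0.05. The fit of 6 libraries leaves 2 residual degrees of freedom, against 1 for the 4 libraries alone. With ASP 1 or Control 1 left out, the other number 1 library is fitted exactly, so the contrast rests on the 4 libraries. These 2 fits gave the same log2 differences (−0.303 for glp-1 in both) and are not separate checks. Differences within a group are of TMM-scaled log2 CPM with a prior count of 2. An SE is the log2 difference divided by the square root of its F statistic. Lists are described by counts and medians, and a gene can belong to more than 1 list. DESeq2 1.42.0, limma 3.58.1 on log2(FPKM + 1) or + 0.1, other scalings, filters and library sets were alternatives.

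Libraries of the same number deviated together from their group means, with correlations over genes of 0.769 for number 1, 0.482 for number 2 and 0.791 for number 3. Correlations between libraries of different numbers are not given, so these values alone do not show that the numbers pair the libraries.

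The text names the 12 genes per direction with the largest difference among called genes that averaged 5 FPKM or more in the 4 libraries, up to 4 called members per list at that level (the member with the smallest p where none is called), and a set of always-named genes. Of that set pes-10 was not analysed here. Other genes were chosen after their values were seen. The members and all 49 lists were chosen with earlier results of these data known.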

Additional observations from a re-analysis of the deposited data

Results flagged for a closer look

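In 2 gene lists the median difference between numbers 3 and 2 was at least 0.2 (log2) away from 0 in both the ASP pair and the Control pair, with opposite signs. Major sperm protein genes had a median log2 difference of −0.558 between ASP 3 and ASP 2, and of 0.236 between Control 3 and Control 2. Insulin-like peptide genes, secreted ligands of the insulin receptor in nematodes, had medians of −0.384 and 0.295 in the same pairs. In several other lists the signs also differed, with at least 1 of the medians nearer to 0, as for cytosolic ribosomal protein genes at −0.044 and 0.324. Whether the pairs differ was not tested, since each group holds 1 library per number.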

How the results depend on the processing

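The number of genes called between numbers 3 and 2 stayed within 1.5 times of 3346 in the fit of the 4 libraries alone (3094 genes, 2906 of them shared), without the group term, under other scalings, without rRNA genes, at a minimum of 5 FPKM and in DESeq2. With no expression filter 1195 genes were called, 614 higher and 581 lower. The split into 1670 higher and 1676 lower genes shifted with library totals alone (1248 higher and 2193 lower) and with limma on log2(FPKM + 1) (1096 higher and 2098 lower) and on log2(FPKM + 0.1) (1037 higher). With any 1 library left out, 1402 to 3612 genes were called, 698 to 1772 higher and 704 to 1840 lower. The lowest counts were those without ASP 2 (1402) and without Control 2 (1481). For pgl-1, not called in any fit, the sign turned to log2 −0.0045 with library totals alone and −0.019 with either limma fit. The causes were not tested.

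With the replicate number as a block, the comparison of ASP with Control called 0 genes in edgeR, as without it (369 and 62 genes at an unadjusted p under 0.05), and DESeq2 and limma called 0 without it. Between numbers 3 and 2 the number is itself the term tested, so no further pairing applies. A number holds 2 libraries, and differences within the error given for each gene could not be called at this size.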

Other observations

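The genes around irg-6 on chromosome IV (12912722 to 12964645, 14 tested genes, WBcel235) did not move as a block, and this region was picked with its values in view. Of the 14 genes, 7 were lower, 5 higher and 2 not called, some of them next to each other. The gene C32H11.9 had 5.17 FPKM in ASP 3 and 7.48 FPKM in Control 3, against 136 FPKM in ASP 2 and 156 FPKM in Control 2 (log2 −4.42, SE 0.33, adjusted p = 9.51e-05), and its neighbour dod-21, which encodes a CUB-like protein, had 6.34 FPKM in ASP 3 and 9.34 FPKM in Control 3, against 148 FPKM in ASP 2 and 173 FPKM in Control 2 (log2 −4.24, SE 0.35, adjusted p = 1.35e-04). Both genes fell to a small part of their number 2 level, and ASP 1 and Control 1 had 70.1 and 34.7 FPKM of C32H11.9. The values of these neighbours ran so closely together that reads shared between copies cannot be told apart from like expression. In the same region C32H11.5 was higher, with 23.1 FPKM in ASP 3 and 21.3 FPKM in Control 3, against 9.26 FPKM in ASP 2 and 8.48 FPKM in Control 2 (log2 1.42, SE 0.17, adjusted p = 7.07e-04), and C32H11.6 had a log2 difference of 2.06. In ASP 1 and Control 1, C32H11.5 stood at 3.10 and 3.19 FPKM.

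A second group of neighbours, on chromosome I, held genes that rose and was likewise chosen after its values were seen. The gene ZK1025.3 (chromosome I, 11460966 to 11463074) had 52.9 FPKM in ASP 3 and 61.4 FPKM in Control 3, against 10.8 FPKM in ASP 2 and 10.5 FPKM in Control 2 (log2 2.51, SE 0.12, adjusted p = 3.25e-05). ASP 1 and Control 1 had 1.05 and 1.10 FPKM. Its neighbour bah-1, known from the attachment of bacterial biofilm to the head of the worm, had 7.92 FPKM in ASP 3 and 9.22 FPKM in Control 3, against 1.75 FPKM in ASP 2 and 1.77 FPKM in Control 2 (log2 2.35, SE 0.43, adjusted p = 0.00547). ZK1025.8 had 13.5 FPKM in ASP 3 and 26.4 FPKM in Control 3, against 5.17 FPKM in ASP 2 and 1.08 FPKM in Control 2 (log2 2.94, SE 0.64, adjusted p = 0.0131). Neither bah-1 (adjusted p = 0.0976) nor ZK1025.8 (adjusted p = 0.0556) passed without Control 2.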
